A study of Mus musculus with 9 samples.

Results

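The genes described are 10 members of the bone morphogenetic protein (BMP) pathway, chosen by gene symbol from the 56748 genes of the deposited count table: the ligands Bmp2, Bmp4, Bmp6, Gdf5 and Gdf10, the secreted antagonists Grem1 and Nog, and the target genes Id1, Id2 and Id3. Each symbol matched 1 row. They were measured by RNA sequencing in chondrocytes, the cells of cartilage, freed with collagenase from knee cartilage of wild-type mice and cultured in serum-containing medium. There were 3 libraries of cells given interleukin-1β (IL-1β), a cytokine used to provoke inflammation and matrix breakdown in cartilage cells, together with recombinant SFRP5, a secreted Wnt-binding protein (IL-1β+SFRP5 cells). A further 3 libraries came from cells given IL-1β alone (IL-1β cells), and 3 from cells given neither agent (control cells). All groups have the same wild-type genotype. The labels give no dose, time, sex or age of the mice, and no group received SFRP5 without IL-1β. Nothing says whether libraries of a group came from separate animals or cultures, so p-values reflect library-to-library spread only, which could be purely technical.

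BMPs and the related growth and differentiation factors (GDFs) are secreted dimers of the TGF-β superfamily. Many of them, but not all, bring type I and type II receptor kinases together so that the type I receptor phosphorylates SMAD1, SMAD5 and SMAD9. These SMADs enter the nucleus with SMAD4. Gremlin and noggin, the products of Grem1 and Nog, bind ligands outside the cell and keep them from the receptors. The Id genes are among the most direct transcriptional targets of the pathway, and their proteins hold basic helix-loop-helix factors away from DNA by pairing with E proteins. In cartilage, BMP signalling is needed to form chondrocytes and to keep their matrix, and GDF5 marks and shapes the developing joint.

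Total counts per library were 15795985 to 20688963 in IL-1β+SFRP5 cells, 17833535 to 18717286 in IL-1β cells and 17960438 to 20107339 in control cells, and 15502 genes had enough counts to be tested. Levels are CPM (counts relative to library size after TMM scaling), given as mean ± SD of 3 libraries, and changes are log2 fold changes ± SE from edgeR's quasi-likelihood test over all genes tested, called at an adjusted p under 0.05. The cells carried cartilage transcripts in every group. The summed level of 11 chondrocyte markers was 30830 to 32280 CPM in IL-1β+SFRP5 libraries and 25390 to 26670 CPM in IL-1β libraries. It was 115100 to 117600 CPM in control libraries. Most of it was Col2a1, at 15410 ± 539 CPM in IL-1β cells and 74500 ± 1037 CPM in control cells. All 11 were called down by IL-1β, where 40.4% of all genes tested were. A list of 8 synovial fibroblast markers summed to 1134 to 1168 CPM in IL-1β+SFRP5 libraries, 889.1 to 948.6 CPM in IL-1β libraries and 195.2 to 200.9 CPM in control libraries, with 4 called up and 3 called down by IL-1β. Most of the synovial sum in IL-1β cells came from Prg4, at 475.4 ± 34.5 CPM, and Pdpn, at 383.5 ± 7.86 CPM. In control cells these were at 65.4 ± 1.78 and 34.3 ± 2.51 CPM. The 3 called down were Thy1, Pdgfra and Dpp4. Other cell types were sparse. Summed over their lists, 10 macrophage markers reached at most 18.27 CPM, 6 neutrophil markers 7.22 CPM, 6 endothelial markers 4.19 CPM and 6 skeletal muscle markers 4.90 CPM in any library. The 6 osteoblast and osteocyte markers summed to at most 0.789 CPM in IL-1β+SFRP5 libraries and 1.48 CPM in IL-1β libraries, against 22.6 CPM in control libraries. The neutrophil genes S100a9 and Ly6g, the endothelial gene Emcn and the osteocyte gene Sost had 0 counts in every group, and Mpo, Elane, Tie1 and Dmp1 had 0 counts in the IL-1β+SFRP5 and the IL-1β libraries. These marker levels moved with IL-1β, and their part in the changes of the members was not tested. In such bulk samples, fewer cells of a type and less RNA per cell cannot be told apart.

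Compared per kilobase of the gene length in the table, Grem1 was the most abundant of the 10 transcripts in all 3 groups, at 88.1 ± 4.31 CPM per kb in IL-1β+SFRP5 cells, 86.8 ± 7.18 CPM per kb in IL-1β cells and 162.1 ± 4.74 CPM per kb in control cells. Id2 came next in both stimulated groups, at 30.6 ± 0.287 CPM per kb in IL-1β+SFRP5 cells and 61.3 ± 3.62 CPM per kb in IL-1β cells, but was the seventh of 10 in control cells, at 9.79 ± 0.568 CPM per kb. Gdf5 was the ligand with the highest level per kb in both stimulated groups. In control cells that place belonged to Gdf10, at 12.4 ± 0.716 CPM per kb, which was the lowest of all 10 genes in both other groups. Bmp2 was low throughout, at 0.776 ± 0.198 CPM per kb in IL-1β+SFRP5 cells, 1.31 ± 0.156 CPM per kb in IL-1β cells and 0.705 ± 0.0713 CPM per kb in control cells. Neighbours in this order were apart in all their libraries, except Id1 and Id3 in IL-1β+SFRP5 cells, Id1 with Bmp4, Bmp4 with Id3 and Bmp6 with Nog in IL-1β cells, and Id1 with Id3, Gdf5 with Id2 and Id2 with Bmp4 in control cells.

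**Figure D1:**
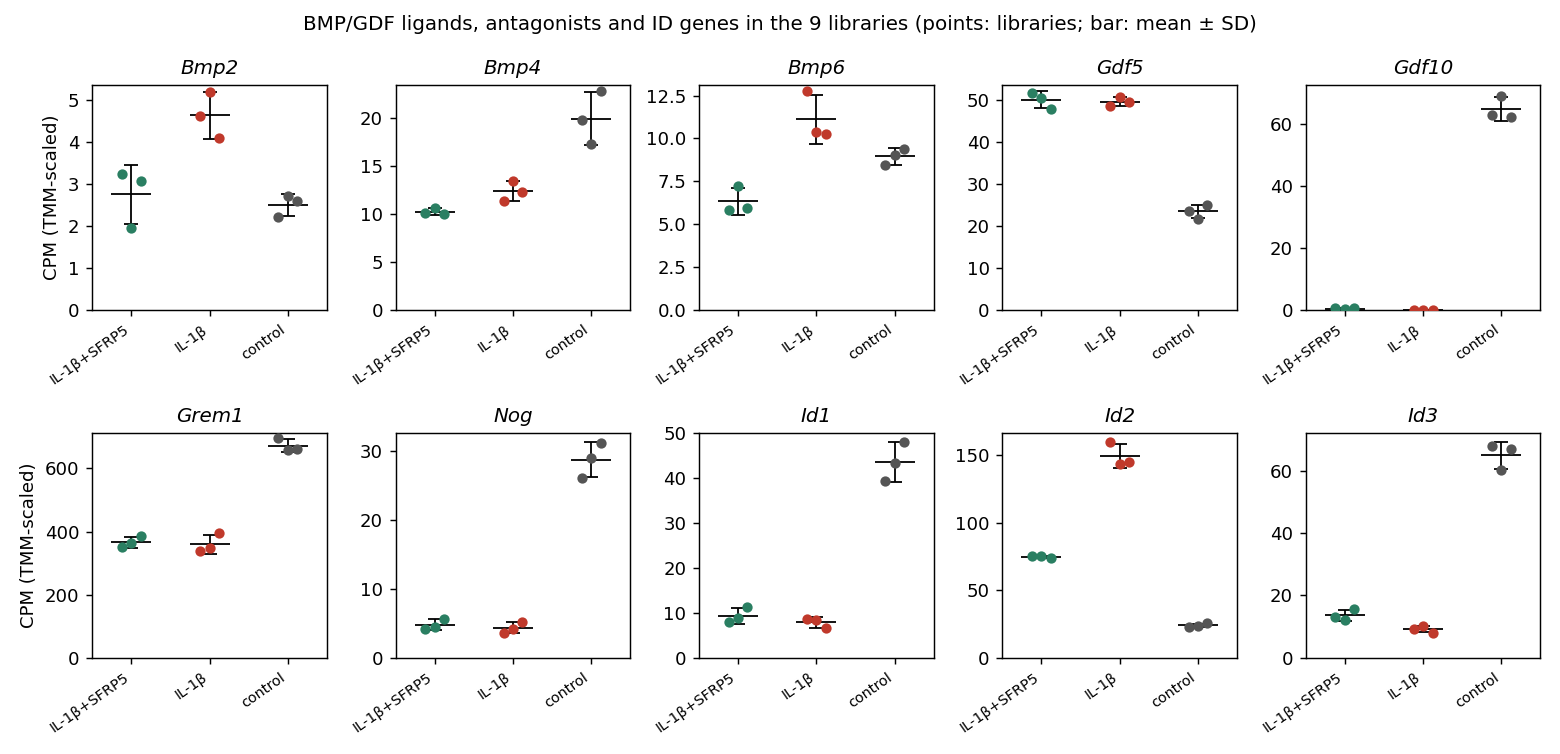
Level of each of the 10 genes in CPM (linear axes from 0, 1 panel per gene) in IL-1β+SFRP5, IL-1β and control cells; points are libraries and bars the mean ± SD of 3. Gdf10, Nog, Id1 and Id3 were lower in every IL-1β library than in any control library, Id2 and Gdf5 were higher, and the Id2 libraries of IL-1β+SFRP5 cells, at 73.7 to 75.0 CPM, lay between those of the other groups.

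The first comparison, IL-1β against control cells, asks what the cytokine did to these genes. All 10 members were called, 4 up (Bmp2, Bmp6, Gdf5 and Id2) and 6 down (Bmp4, Gdf10, Grem1, Nog, Id1 and Id3). Of all genes tested, 78.9% were called in this comparison, 38.5% up and 40.4% down, so a high share of calls is common to the whole table. These were 5969 genes up and 6258 down, whereas scaling by total counts alone gave 4695 up and 7755 down. The libraries of the 2 groups did not overlap for any of the 10 members, and for 80% of all genes tested. The members' median log2 change was −0.79, against −0.03 over all genes tested.

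Among the ligands, the change by IL-1β ran in both directions and differed widely in size. Gdf10 (ENSMUSG00000021943, chromosome 14), which encodes a member of the family also called BMP3b, was nearly lost: its libraries had 1, 0 and 1 counts in IL-1β cells, against 1246, 1529 and 1226 counts in control cells. The level in IL-1β cells was thus 1640-fold lower than the 64.7 ± 3.73 CPM of control cells, and the exact 95% interval of 454 to 13550 covers counting error only (adjusted p = 1.01e-24). Gdf10 passed the filter on low counts through the control libraries alone. Gdf5 (ENSMUSG00000038259, chromosome 2), the joint-forming ligand, had 48.6, 50.8 and 49.5 CPM in IL-1β libraries, against 23.5, 21.8 and 25.0 CPM in control libraries. It thus rose 2.12-fold, by 1.08 ± 0.06 on the log2 scale (adjusted p = 2.4e-14), and all its IL-1β libraries were above all control libraries.

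The 3 ligands with BMP names moved less. Bmp4 (ENSMUSG00000021835, chromosome 14), a ligand used throughout skeletal development, had 11.4, 13.4 and 12.2 CPM in IL-1β libraries, against 19.7, 17.3 and 22.8 CPM in control libraries, a log2 change of −0.69 ± 0.10 (adjusted p = 1.58e-06). Bmp2 (ENSMUSG00000027358, chromosome 2), its close relative and a strong inducer of cartilage and bone, had 4.62, 5.21 and 4.10 CPM in IL-1β libraries, against 2.22, 2.71 and 2.59 CPM in control libraries. Its rise of 0.88 ± 0.21 on the log2 scale (adjusted p = 0.000462) rests on 44 to 86 counts per library. These closely related ligands thus went in opposite directions, with no overlap between the groups for either. Bmp6 (ENSMUSG00000039004, chromosome 13), a BMP made by maturing chondrocytes, had 12.8, 10.4 and 10.3 CPM in IL-1β libraries, against 8.44, 9.03 and 9.39 CPM in control libraries. Its log2 change of 0.31 ± 0.12 passed the threshold (adjusted p = 0.0249), but not with DESeq2 (adjusted p = 0.0549), with upper-quartile factors (0.226) or total counts alone (0.629), nor without control library 1 (0.0834) or IL-1β library 1 (0.128). Bmp6 also shares 224 bases with Txndc5 on the opposite strand in the GENCODE M21 annotation, and whether counting used the strand is not stated in the labels. Summed over libraries, Txndc5 had 9482 counts in IL-1β cells and 28251 in control cells, while Bmp6 had 561 and 552.

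Both antagonists fell after IL-1β. Nog (ENSMUSG00000048616, chromosome 11) had 3.65, 4.12 and 5.24 CPM in IL-1β libraries, against 26.1, 29.0 and 31.1 CPM in control libraries. It was 6.60-fold lower, with a log2 change of −2.72 ± 0.13 (adjusted p = 2.19e-16). Grem1 (ENSMUSG00000074934, chromosome 2) had 337.1, 349.3 and 393.7 CPM in IL-1β libraries, against 695.0, 659.4 and 662.8 CPM in control libraries, a log2 change of −0.90 ± 0.05 (adjusted p = 4.2e-15). Although it fell, Grem1 still made up most of the transcripts of this pair. The sum of Grem1 and Nog was 89.4 ± 7.66 CPM per kb in IL-1β cells and 179.1 ± 3.52 CPM per kb in control cells. The summed level of Bmp2, Bmp4 and Bmp6 was 9.65 ± 0.437 CPM per kb in IL-1β cells and 11.9 ± 1.28 CPM per kb in control cells. The ratio of these antagonist to these BMP ligand transcripts was therefore 8.67, 8.58 and 10.6 in IL-1β libraries, against 15.8, 16.4 and 13.4 in control libraries, which did not overlap. It leaves out Bmp5, which is not a member. Bmp5 was at 19.3 ± 0.502 CPM in IL-1β cells and 56.5 ± 0.890 CPM in control cells, above Bmp2, Bmp4 and Bmp6 each. The lower ratio thus holds for Bmp2, Bmp4 and Bmp6 only. With Gdf5 but not Gdf10 added, the summed ligand level was higher after IL-1β, at 31.0 ± 0.830 CPM per kb in IL-1β cells and 21.96 ± 1.97 CPM per kb in control cells. Gdf10, left out of both sums, was at 0.00753 ± 0.00653 CPM per kb in IL-1β cells and 12.4 ± 0.716 CPM per kb in control cells. The rise of the sum thus holds for Bmp2, Bmp4, Bmp6 and Gdf5 only. With Gdf5 the ratio was 2.73, 2.71 and 3.21 in IL-1β libraries, against 8.43, 8.75 and 7.41 in control libraries. Such a ratio compares transcripts and not proteins, and says nothing of binding.

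The 3 ID genes did not move together. Id2 (ENSMUSG00000020644, chromosome 12) had 159.6, 143.6 and 145.1 CPM in IL-1β libraries, against 22.9, 23.3 and 25.4 CPM in control libraries. It rose 6.27-fold, by 2.65 ± 0.06 on the log2 scale (adjusted p = 9.25e-24). Id1 (ENSMUSG00000042745, chromosome 2) had 8.69, 8.36 and 6.55 CPM in IL-1β libraries, against 39.3, 43.3 and 47.9 CPM in control libraries. It was 5.54-fold lower (log2 change −2.47 ± 0.11, adjusted p = 1.38e-16). Id3 (ENSMUSG00000007872, chromosome 4) had 9.24, 10.1 and 8.08 CPM in IL-1β libraries, against 67.9, 60.1 and 66.8 CPM in control libraries, and was 7.12-fold lower (log2 change −2.83 ± 0.09, adjusted p = 5.77e-20). No IL-1β library overlapped a control library for any of the 3 genes. The make-up of the ID transcripts shifted to Id2. Id2 made up 83.8 ± 1.65% of the summed Id1, Id2 and Id3 level per kb in IL-1β cells, against 11.7 ± 0.146% in control cells, and that sum was 73.2 ± 4.40 CPM per kb in IL-1β cells and 83.5 ± 4.80 CPM per kb in control cells. Id4, the remaining gene of the family, fell as Id1 and Id3 did, to 1.25 ± 0.403 CPM in IL-1β cells, against 21.1 ± 0.919 CPM in control cells (log2 change −4.07 ± 0.17, adjusted p = 4.16e-17).

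**Figure D2:**
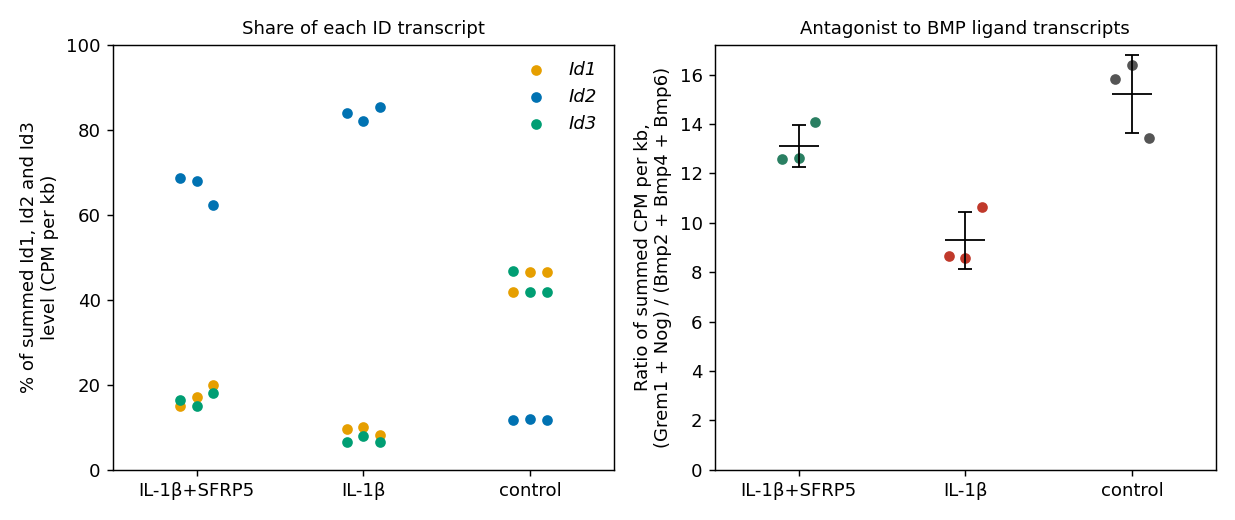
Left, percentage of the summed Id1, Id2 and Id3 level (CPM per kb) held by each gene; right, ratio of the summed antagonist level (Grem1 and Nog) to the summed level of Bmp2, Bmp4 and Bmp6, both in CPM per kb, with the mean ± SD of 3 libraries. Points are libraries. Id2 held 83.8% on average in IL-1β cells and 11.7% in control cells. The ratio, which leaves out Bmp5 and other ligands, averaged 9.29 in IL-1β cells and 15.2 in control cells.

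The promoters of Id2, which rose, and of Id3, Grem1 and Gdf10, which fell, are shown to set the sequences before these genes side by side. RefSeq promoter windows (build GRCm38.p6) were found for 6 of the 10 members, and the 250 bases before the start are given 5′ to 3′ in the direction of the gene. They lie at chr12:25096093-25096342 (Id2, minus strand), chr4:136143572-136143821 (Id3, plus strand), chr2:113758649-113758898 (Grem1, minus strand) and chr14:33923337-33923586 (Gdf10, plus strand). Capitals mark the matches to GGCGCC, a GC-rich element known from BMP-responsive promoters.
Id2: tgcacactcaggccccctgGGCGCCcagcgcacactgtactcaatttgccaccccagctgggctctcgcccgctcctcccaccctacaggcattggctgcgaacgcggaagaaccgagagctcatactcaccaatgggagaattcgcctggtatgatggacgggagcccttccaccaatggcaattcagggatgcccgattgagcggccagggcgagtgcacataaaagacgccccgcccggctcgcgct
Id3: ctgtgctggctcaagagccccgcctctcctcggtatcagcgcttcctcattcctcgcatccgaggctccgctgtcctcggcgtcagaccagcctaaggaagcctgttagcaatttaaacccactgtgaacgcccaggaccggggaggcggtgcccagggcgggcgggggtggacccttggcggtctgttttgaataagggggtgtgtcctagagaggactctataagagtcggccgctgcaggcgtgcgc
Grem1: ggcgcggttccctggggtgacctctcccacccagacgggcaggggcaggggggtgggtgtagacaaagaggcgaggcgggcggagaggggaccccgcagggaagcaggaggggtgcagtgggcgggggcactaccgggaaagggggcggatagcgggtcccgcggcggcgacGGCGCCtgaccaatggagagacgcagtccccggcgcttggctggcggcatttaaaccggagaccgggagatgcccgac
Gdf10: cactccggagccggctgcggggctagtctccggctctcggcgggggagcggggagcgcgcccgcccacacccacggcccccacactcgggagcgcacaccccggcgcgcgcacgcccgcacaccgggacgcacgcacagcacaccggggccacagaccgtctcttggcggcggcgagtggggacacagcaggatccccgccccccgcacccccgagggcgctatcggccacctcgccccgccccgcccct
GGCGCC, searched on both strands, occurred once in Id2, with its first base at position −231 from the start, and once in Grem1, at position −78. It was not found in the windows of Id3, Gdf10, Bmp4 or Bmp6, and bases beyond these 250 were not searched. Among 32851 windows of the same length before mouse RefSeq starts, 9.59% held this element. None of the 6 windows held the AP-1 element TGANTCA, found in 6.75% of all windows, or the NF-κB consensus, found in 3.9%. Id2 rose and Grem1 fell with IL-1β, and whether the element bears on either change was not tested. G and C made up 78.8% of the Gdf10 window, 72% of the Grem1 window and 62.8% of the Id2 and the Id3 windows, against a median of 52.4% over all windows. A match is a description of the letters in these windows and not a bound site.

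The second comparison, IL-1β+SFRP5 against IL-1β cells, asks what recombinant SFRP5 added. Of the 10 members 5 were called, Bmp2, Bmp6 and Id2 down and Gdf10 and Id3 up. Gdf10 had too few counts to be tested when only the 6 libraries compared were fitted, which left 1 member called up. Over all genes tested, 31.3% were called, 15.6% up and 15.7% down, or 2420 and 2438 genes, whereas scaling by total counts alone gave 3602 up and 1567 down. The libraries did not overlap for 6 members, the same 5 and Bmp4, and for 40.8% of all genes tested. The median log2 change was 0.02 for the members and 0.01 over all genes tested. This comparison shares its IL-1β libraries with the first.

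Id2 had the smallest adjusted p of the members with SFRP5. Its level was 75.0, 74.9 and 73.7 CPM in IL-1β+SFRP5 libraries, against the 159.6, 143.6 and 145.1 CPM in IL-1β libraries, and was 2.00-fold lower (log2 change −1.0 ± 0.05, adjusted p = 2.94e-14). Every IL-1β+SFRP5 library stood below every IL-1β library and above every control library, of which the highest had 25.4 CPM. Id3 had 13.2, 12.1 and 15.6 CPM in IL-1β+SFRP5 libraries, against 9.24, 10.1 and 8.08 CPM in IL-1β libraries, a log2 change of 0.58 ± 0.11 (adjusted p = 0.000126). Its libraries did not overlap either, although all of them stayed far below the control level of 64.9 ± 4.23 CPM. Id1 had 7.84, 8.91 and 11.2 CPM in IL-1β+SFRP5 libraries, against 8.69, 8.36 and 6.55 CPM in IL-1β libraries. The Id1 libraries overlapped and the gene was not called (log2 change 0.24 ± 0.14, adjusted p = 0.194). Id2 made up 66.2 ± 3.54% of the summed ID level per kb in IL-1β+SFRP5 cells and 83.8 ± 1.65% in IL-1β cells, and the sum itself was 46.2 ± 2.10 CPM per kb in IL-1β+SFRP5 cells and 73.2 ± 4.40 CPM per kb in IL-1β cells.

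Of the ligands, Bmp6 and Bmp2 were lower with SFRP5. Bmp6 had 5.82, 7.22 and 5.96 CPM in IL-1β+SFRP5 libraries, against 12.8, 10.4 and 10.3 CPM in IL-1β libraries (log2 change −0.82 ± 0.13, adjusted p = 2.59e-05). It ended below the control libraries, which had 8.44 to 9.39 CPM. Txndc5, its neighbour on the other strand, had 12450 counts in IL-1β+SFRP5 cells and 9482 in IL-1β cells, while Bmp6 had 330 and 561. Bmp2 had 3.25, 1.95 and 3.07 CPM in IL-1β+SFRP5 libraries, against 4.62, 5.21 and 4.10 CPM in IL-1β libraries (log2 change −0.73 ± 0.21, adjusted p = 0.00902). This call rests on the IL-1β+SFRP5 library with 30 counts of Bmp2, since without it the change was −0.55 (adjusted p = 0.0556). Gdf10 had 10, 4 and 8 counts in IL-1β+SFRP5 libraries, against 1, 0 and 1 in IL-1β libraries, which is 10.6 times as many after scaling (exact 95% interval 2.60 to 92.7, adjusted p = 0.000722). In absolute terms that was 0.408 ± 0.129 CPM in IL-1β+SFRP5 cells, where the control cells had 64.7 ± 3.73 CPM. Bmp4 had 10.1, 10.6 and 9.97 CPM in IL-1β+SFRP5 libraries, against 11.4, 13.4 and 12.2 CPM in IL-1β libraries, and was not called although the libraries did not overlap (log2 change −0.27 ± 0.11, adjusted p = 0.072). Gdf5 had 51.8, 50.5 and 47.9 CPM in IL-1β+SFRP5 libraries, against 48.6, 50.8 and 49.5 CPM in IL-1β libraries, which overlapped (log2 change 0.01 ± 0.06, adjusted p = 0.897).

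Neither antagonist was called. Grem1 had 349.8, 362.0 and 385.0 CPM in IL-1β+SFRP5 libraries, against 337.1, 349.3 and 393.7 CPM in IL-1β libraries (log2 change 0.02 ± 0.05, adjusted p = 0.782). Nog had 4.19, 4.49 and 5.66 CPM in IL-1β+SFRP5 libraries, against 3.65, 4.12 and 5.24 CPM in IL-1β libraries (log2 change 0.13 ± 0.16, adjusted p = 0.593). For both genes the libraries of the groups overlapped. The summed level of Bmp2, Bmp4 and Bmp6 was 6.95 ± 0.149 CPM per kb in IL-1β+SFRP5 cells and 9.65 ± 0.437 CPM per kb in IL-1β cells. The ratio of Grem1 and Nog to these BMP ligand transcripts was 12.6, 12.6 and 14.1 in IL-1β+SFRP5 libraries, all above the 8.67, 8.58 and 10.6 in IL-1β libraries. Bmp5, again left out, went against this ligand sum, at 36.1 ± 1.14 CPM in IL-1β+SFRP5 cells and 19.3 ± 0.502 CPM in IL-1β cells. The higher ratio thus holds for Bmp2, Bmp4 and Bmp6 only. With Gdf5, but not Gdf10, counted among the ligands the ratio was 2.97, 3.11 and 3.50 in IL-1β+SFRP5 libraries and 2.73, 2.71 and 3.21 in IL-1β libraries, which overlapped. The summed level of these ligands was 28.5 ± 0.942 CPM per kb in IL-1β+SFRP5 cells and 31.0 ± 0.830 CPM per kb in IL-1β cells.

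**Figure D3:**
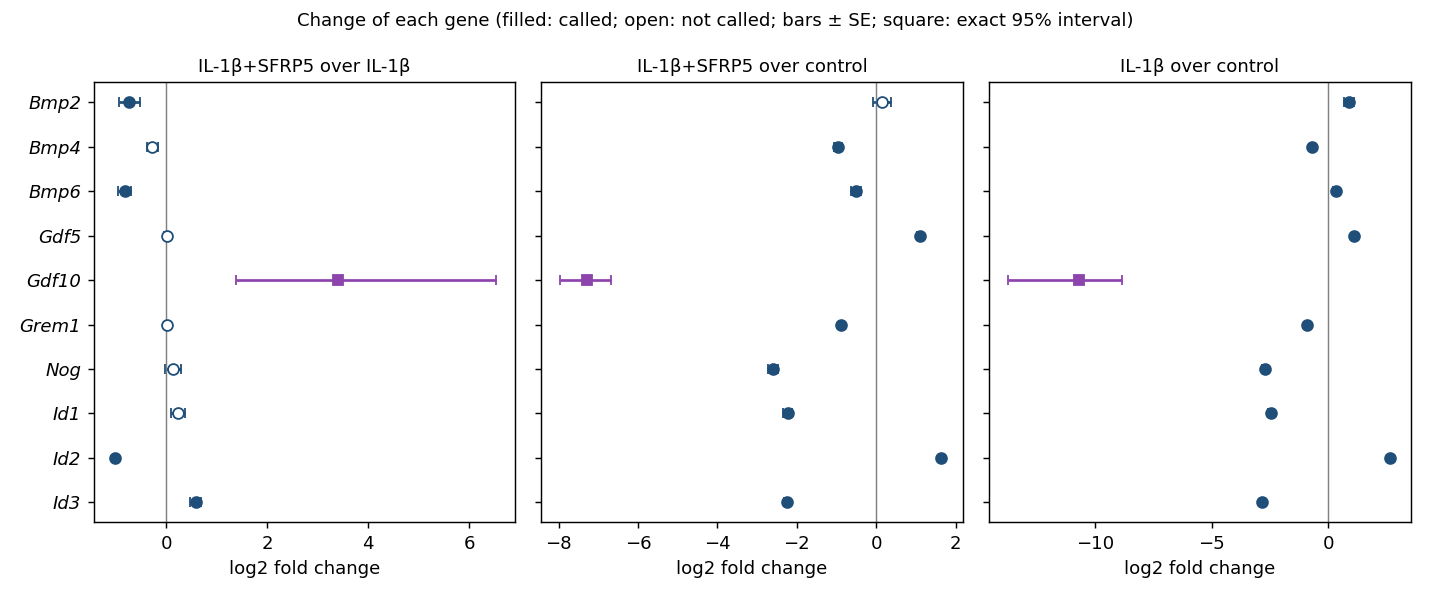
Log2 fold change of each gene for IL-1β+SFRP5 over IL-1β, IL-1β+SFRP5 over control and IL-1β over control; circles are edgeR values ± SE, filled where called, and squares are the ratios of Gdf10 counts, called in each comparison, with exact 95% intervals. The horizontal scales differ between panels: the changes of the other 9 genes with SFRP5 ran from −1.0 (Id2) to 0.58 (Id3), and those with IL-1β from −2.83 (Id3) to 2.65 (Id2).

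The third comparison, IL-1β+SFRP5 against control cells, shows where the genes stood with both agents. Of the 10 members 2 were called up (Gdf5 and Id2), 7 down and Bmp2 not at all, where 37.3% of all genes tested were called up and 39% down, or 76.3% in either direction. Their libraries did not overlap for 9 members, and for 78.2% of all genes tested. Bmp2 was at 2.76 ± 0.705 CPM in IL-1β+SFRP5 cells and 2.51 ± 0.254 CPM in control cells (log2 change 0.15 ± 0.22, adjusted p = 0.543). Bmp6 was at 6.33 ± 0.772 CPM in IL-1β+SFRP5 cells and 8.95 ± 0.484 CPM in control cells (log2 change −0.51 ± 0.13, adjusted p = 0.00133). Id2 was 3.12-fold higher in IL-1β+SFRP5 cells than in control cells, whereas Id1 was 4.69-fold, Id3 4.75-fold and Nog 6.03-fold lower. Gdf10 was 155.2-fold lower in IL-1β+SFRP5 cells than in control cells by its counts (exact interval 102.4 to 247.9).

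The other genes of the pathway were taken from 7 lists with 81 genes, of which 66 were tested. After IL-1β, 25 of these rose and 34 fell (median −0.37), where 38.5% of all genes tested rose and 40.4% fell (median −0.03). In IL-1β+SFRP5 against IL-1β cells, 27 rose and 10 fell (median 0.17), where 15.6% of all genes tested rose and 15.7% fell (median 0.01). These shares are the background for each list below, and no list was tested against it. Of 16 other ligands 7 were tested, and 3 rose and 4 fell with IL-1β. Bmp7, a ligand of kidney and skeletal development, rose to 6.04 ± 0.515 CPM in IL-1β cells, against 0.850 ± 0.303 CPM in control cells. Gdf9 and Gdf15, distant relatives best known from the ovary and from stress responses, were the others that rose, by 1.75 and 0.66. Bmp5 fell to 19.3 ± 0.502 CPM in IL-1β cells, against 56.5 ± 0.890 CPM in control cells, and the joint ligand Gdf6 and Gdf11 were lower as well (log2 changes −1.62 and −1.66). With SFRP5, Gdf6 (log2 change 1.46 ± 0.29, adjusted p = 0.00037) and Bmp5 (0.90 ± 0.06, adjusted p = 2.28e-11) were higher than with IL-1β alone, and Bmp3 (−0.78 ± 0.16, adjusted p = 0.000476) and Gdf15 (−0.53 ± 0.08, adjusted p = 4.63e-06) lower.

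Among 13 tested secreted antagonists and modulators other than Grem1 and Nog, 6 rose and 6 fell with IL-1β (median −0.59). The follistatin relative Fstl3 rose to 252.4 ± 6.42 CPM in IL-1β cells, against 17.7 ± 1.66 CPM in control cells. The chordin-like genes Chrdl1 and Chrdl2 fell by 2.79 and 4.50 on the log2 scale. In IL-1β+SFRP5 against IL-1β cells 4 rose and 0 fell. They were Chrdl1 (log2 change 0.22), Chrdl2 (1.60), Twsg1, a BMP-binding modulator (0.61), and Fst, the activin and BMP antagonist follistatin. Fst was at 26.1 ± 1.86 CPM in IL-1β+SFRP5 cells and 9.57 ± 0.468 CPM in IL-1β cells (log2 change 1.45 ± 0.09, adjusted p = 7.75e-13). All 4 had fallen with IL-1β, and Fst was at 33.9 ± 1.04 CPM in control cells. Twsg1 was at 171.4 ± 3.45 CPM in IL-1β+SFRP5 cells, 112.5 ± 1.63 CPM in IL-1β cells and 169.2 ± 4.98 CPM in control cells.

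Receptors went both ways after IL-1β. Of 12 tested receptors and co-receptors 4 rose and 6 fell (median −0.19). The type I receptor Bmpr1b rose by 1.24, while the decoy receptor Bambi fell by 3.54, the co-receptor Rgma by 2.66 and its partner Neo1 by 1.20 on the log2 scale. With SFRP5 added, 8 were higher and 0 lower than with IL-1β alone (median 0.20), where 15.6% of all genes tested were called up and 15.7% down. They were led by Rgma (0.52 ± 0.10), Rgmb (0.51 ± 0.09) and the endothelial co-receptor Eng (0.49 ± 0.07). The smallest of these changes was that of Bmpr2 (0.11 ± 0.04), whose edgeR adjusted p of 0.05 after rounding was only just under the threshold.

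All 13 SMADs and intracellular brakes were called with IL-1β, 8 up and 5 down (median 0.56), against 78.9% of all genes tested, 38.5% up. Smad7, an inhibitory SMAD that blocks both BMP and TGF-β receptors, rose to 107.6 ± 4.83 CPM in IL-1β cells, against 10.0 ± 0.787 CPM in control cells. The ubiquitin ligase Smurf1, which marks SMADs and receptors for breakdown, rose by 2.35 on the log2 scale and the SMAD-binding repressor Zeb2 by 2.89. Other brakes fell. Smad6, also an inhibitory SMAD, was at 7.78 ± 0.813 CPM in IL-1β cells, against 34.4 ± 1.74 CPM in control cells. Tob1 and Ski were lower as well (log2 changes −0.98 and −0.98). The signal transducer Smad9 fell to 1.23 ± 0.645 CPM in IL-1β cells, against 15.7 ± 1.05 CPM in control cells. The more abundant Smad1 and Smad4 rose (log2 changes 0.56 and 1.03), to 40.7 ± 2.69 and 123.4 ± 3.51 CPM in IL-1β cells. Smad5 was slightly lower (log2 change −0.13), at 85.2 ± 2.30 CPM in IL-1β cells and 93.3 ± 4.11 CPM in control cells. In IL-1β+SFRP5 against IL-1β cells 6 rose and 5 fell, among them Smad9 up by 1.19 ± 0.27 (adjusted p = 0.0014), and Smad7, with a change of −0.53 ± 0.05 (adjusted p = 1.58e-08), and the repressor Skil, with −0.50 ± 0.06 (adjusted p = 9.3e-08), both down.

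Proteases that process the ligands or free them from antagonists fell in 5 of 6 cases with IL-1β (median −0.45). The proprotein convertase Pcsk6 fell to 10.2 ± 1.17 CPM in IL-1β cells, against 162.7 ± 4.14 CPM in control cells, and the convertase Furin was lower too (log2 change −1.70). Tll1, a tolloid-like protease, fell by 0.62. Tll2, its relative, was the gene called up (adjusted p = 0.0358), but on 3, 0 and 5 counts in IL-1β libraries against 0, 1 and 0 in control libraries, which overlap (ratio 9.76, exact 95% interval 1.31 to 432.9). It passed the filter on low counts through the IL-1β+SFRP5 libraries alone, where it had 20, 10 and 12 counts. With SFRP5 added, 4 were higher and 2 lower than with IL-1β alone. Those higher included Pcsk5 (log2 change 0.87), Pcsk6 (0.66) and Tll2, with 42 counts in IL-1β+SFRP5 cells and 8 in IL-1β cells (ratio 5.04, exact interval 2.34 to 12.4), and those lower were Bmp1 (−0.27) and Tll1 (−1.64).

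Of 12 tested further BMP target genes 6 fell and 3 rose with IL-1β (median −1.21), where 78.9% of all genes tested were called in either direction. Besides Id4, the homeobox gene Dlx5 was lower (log2 change −2.85), and the transcription factor Atoh8 fell to 5.04 ± 0.792 CPM in IL-1β cells, against 20.1 ± 0.926 CPM in control cells. The 3 that rose were the T-box gene Tbx3 (log2 change 5.13), the homeobox gene Dlx3 (3.30) and Msx2 (1.84). In IL-1β+SFRP5 against IL-1β cells, Atoh8 (0.52 ± 0.14, adjusted p = 0.00512) and Hey1 (0.54 ± 0.19, adjusted p = 0.0326) rose, Msx2 fell (−0.66 ± 0.17, adjusted p = 0.00349), and 9 were not called. Of the 3 E proteins that pair with IDs, Tcf4 and Tcf3 fell with IL-1β by 1.43 and 0.66 on the log2 scale, and Tcf4 alone was called with SFRP5, at 136.9 ± 1.74 CPM in IL-1β+SFRP5 cells and 99.7 ± 5.71 CPM in IL-1β cells (log2 change 0.46 ± 0.05, adjusted p = 1.3e-08).

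**Figure D4:**
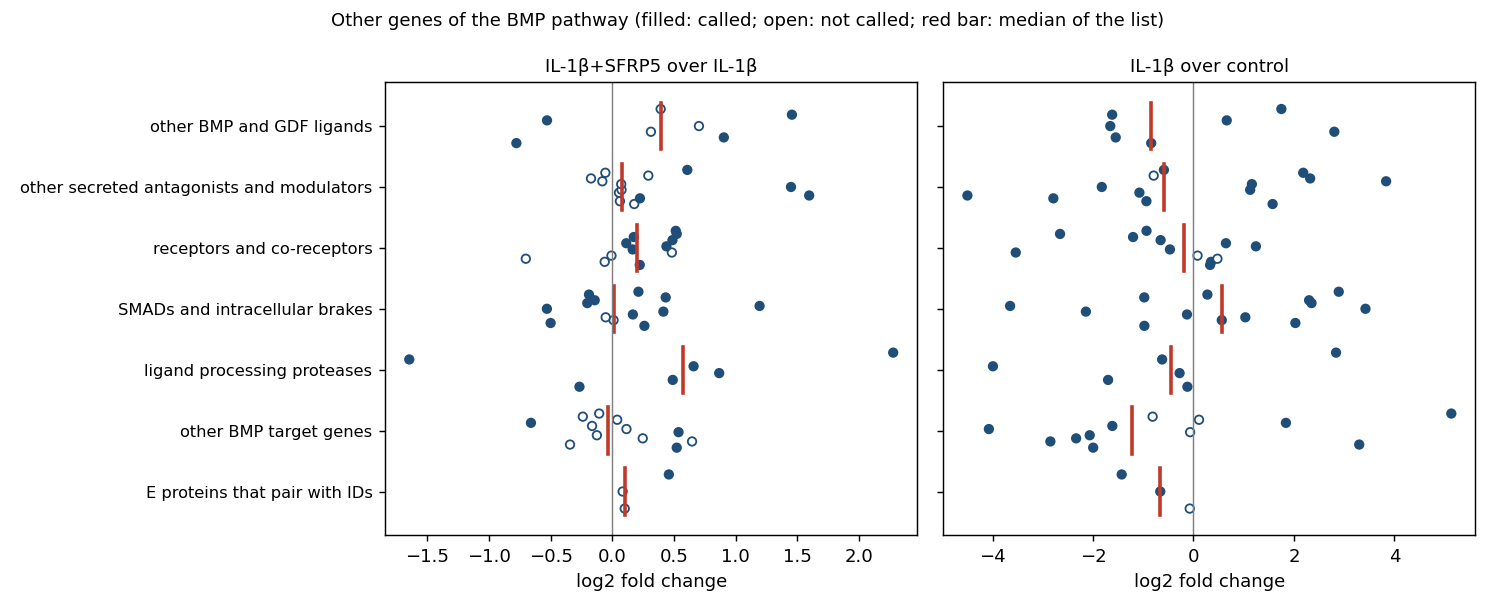
Log2 fold change of 66 other BMP pathway genes in 7 lists, for IL-1β+SFRP5 over IL-1β and IL-1β over control; points are genes, filled where called, and red bars are list medians. With SFRP5 added, 8 of 12 tested receptors and co-receptors were called up, Bmpr2 only just, and 0 down, where 15.6% of all genes tested were called up. The horizontal scales differ between panels.

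The genes with patterns most like those of the members were sought over the 9 libraries, as the smallest distance between log2 CPM values centred on each gene's mean. Closest to Id2 were Fem1b, Kif2a and Klf10, at distances of 0.253, 0.268 and 0.311. Their changes were 2.74, 2.48 and 2.72 with IL-1β and −0.94, −0.84 and −1.05 in IL-1β+SFRP5 against IL-1β cells. Closest to Id3 were Galnt13, Igdcc4 and Satb1, at 0.248, 0.354 and 0.366, and closest to Id1 were Cytl1, Vamp1 and Boc, at 0.398, 0.451 and 0.473. For the ligands these were Cyfip2, C920009B18Rik and Arhgap31 with Bmp2, Nipsnap1, Tapbpl and Erbb2 with Bmp4, Prkcd, Mvp and Zbtb16 with Bmp6, and Col16a1, Npc2 and Zyx with Gdf5, at distances of 0.125 to 0.533. The antagonist Grem1 was closest to Smarcc1, Ube2s and Ykt6, at 0.131 to 0.15, and Nog to Efnb1, Npr3 and Zfp862-ps, at 0.448 to 0.495. No gene came as near to Gdf10, whose closest were Cdkn1c, Gm44732 and Lrrc17 at distances of 1.62, 1.82 and 2.01. None of the 10 members was among these genes for another member.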

How the data were processed

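RNA sequencing covered 9 libraries, 3 per group. The authors deposited 1 table of gene counts, whole numbers not scaled between libraries, with a gene length per gene. Per the labels' protocols, a strand-keeping kit was used, reads were trimmed with fastp, aligned to mm10 with STAR and quantified with RSEM; versions, the strand setting and the rounding of RSEM's estimates are not given in the sources used here. Of 52073 gene IDs shared with GENCODE M21 (GRCm38), 1472 had the same start and end, so no position from the table is printed. Columns were matched to samples by letter and number; the names of the SFRP5 columns hold further digits that the labels do not explain.

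From the deposited counts, edgeR 4.0.16 (R 4.3.3) tested 15502 genes kept by filterByExpr, with TMM factors, group means and 1 quasi-likelihood fit over the 9 libraries, adjusted by Benjamini-Hochberg over all genes tested. SE was derived from the change and its F statistic. Log2 CPM used a prior count of 2. Ratios of small counts carry exact 95% intervals, which cover counting error only. At these depths 3 counts in a library equalled 0.145 to 0.19 CPM before TMM scaling. The script was tested on simulated data. Members and lists were chosen with earlier results of these data known. All members are named; of each pathway list, up to 4 called genes with the largest change by IL-1β, up to 3 by SFRP5 and genes against the majority where 3 or fewer; others were added after their values were seen. A gene that the rule names is not reported here. Alternatives were RLE, upper-quartile or no factors, no filter, DESeq2 1.42.0, robust dispersions, 6 libraries only, the replicate number as a block, each library left out, and levels without length.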

Additional observations from a re-analysis of the deposited data

How the results depend on the processing

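Of 510 log2 changes of members under the alternatives, 498 were counted as keeping their direction and side of the threshold, 6 lost their call and 6 changed sign. The 498 include Gdf10 in IL-1β+SFRP5 against IL-1β with only the 6 libraries compared, where it was not tested and so had no call to keep. Of 306 counts of calls, 304 stayed within 1.5 times. The 6 tested changes that lost their call were Bmp6 in IL-1β against control, as given above, and Bmp2 in IL-1β+SFRP5 against IL-1β without IL-1β+SFRP5 library 2. The sign changes were in changes that were not called: Bmp2 in IL-1β+SFRP5 against control with total counts alone (−0.012), and, in IL-1β+SFRP5 against IL-1β with single libraries left out, Gdf5 (−0.0131 to 0.0451), Grem1 (−0.0238 to 0.0918) and Nog (−0.0078 to 0.295). Total counts alone and upper-quartile factors moved the median of all genes in IL-1β against control to −0.277 and −0.18; relative to it Bmp6 was at 0.343 and 0.344, against 0.343 with TMM factors. With total counts alone, 1567 genes were called down in IL-1β+SFRP5 against IL-1β, where TMM factors gave 2438. With the 6 libraries compared alone, members called up in that comparison numbered 1, since Gdf10 then had too few counts to be tested. Without division by length the ratio of Grem1 and Nog to Bmp2, Bmp4 and Bmp6 was 19.2, 13.0 and 22.5 in IL-1β+SFRP5, IL-1β and control cells. Bmp5 was left out of this ratio too. The Id2 share of ID transcripts was then 76.5, 89.8 and 18.0% in the same order of groups. Same-numbered libraries did not deviate together (r −0.036 to 0.04; other pairs −0.039 to 0.055, across genes), so the numbers were not taken as pairs; with the replicate block no call of a member changed (4 up and 6 down, 2 up and 3 down, 2 up and 7 down), and 2389 genes were called up and 2391 down in IL-1β+SFRP5 against IL-1β. Depth limits Bmp2, with 30 to 86 counts per library, and Gdf10 outside control cells.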
